A study of Rattus norvegicus with 6 samples.

Results

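The muscle nicotinic acetylcholine receptor subunit genes Chrna1, Chrnb1, Chrnd, Chrng and Chrne and the receptor tyrosine kinase gene Musk were followed in rat Achilles tendon between post-natal day 1 and post-natal day 7. The array held probe sets naming 1 gene for 14217 genes, and these 6 were taken from them by symbol, with earlier results of these data known. The probe sets were 1369843_at for Chrna1, 1369091_at for Chrnb1, 1368734_at for Chrnd, 1387727_at for Chrng, 1369137_at for Chrne and 1369388_at for Musk, and a further one for Chrnb1, 1379870_at, served as a check. Pools of tendons taken from at least 2 animals were measured on 3 arrays at day 1 and 3 at day 7. No treatment, genotype, strain or sex is named for them. The p-values thus reflect how these pools varied, and nothing says whether pools of 1 age came from separate litters.

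The receptor is the ion channel through which the motor nerve excites a muscle fibre. In fetal muscle it is built from alpha, beta, delta and gamma subunits, and as the synapse matures an epsilon subunit takes the place of gamma. Before and shortly after birth the subunit genes are transcribed along the whole fibre, and nerve-driven activity later restricts them to the nuclei under the nerve ending. MuSK is the kinase that, switched on by nerve agrin through its partner Lrp4, gathers the receptors there. The tendon itself is not a site of these synapses, but it is joined to muscle fibres at its upper end, and muscle RNA was present on all 6 arrays.

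The promoters are shown for the fetal gamma gene, the adult epsilon gene and the shared alpha and delta genes, because myogenic factors act on receptor genes through E-boxes and the N-box is the element known from synapse-specific transcription. All 6 genes matched the RefSeq promoter table (assembly GRCr8, 250 bases before to 50 bases after the annotated start, 5′ to 3′ on the gene's strand). Capitals mark the E-box form CAGCTG and the N-box CCGGAA, which appears as TTCCGG where it lies on the other strand.
Chrng promoter (chr9:95325734-95326033, plus strand): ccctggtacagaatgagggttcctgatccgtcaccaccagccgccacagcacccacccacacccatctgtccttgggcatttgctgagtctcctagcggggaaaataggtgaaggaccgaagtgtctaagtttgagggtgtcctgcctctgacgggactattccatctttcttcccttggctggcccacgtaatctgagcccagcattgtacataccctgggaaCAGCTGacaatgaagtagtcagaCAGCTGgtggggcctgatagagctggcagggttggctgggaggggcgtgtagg
Chrne promoter (chr10:55834105-55834404, minus strand): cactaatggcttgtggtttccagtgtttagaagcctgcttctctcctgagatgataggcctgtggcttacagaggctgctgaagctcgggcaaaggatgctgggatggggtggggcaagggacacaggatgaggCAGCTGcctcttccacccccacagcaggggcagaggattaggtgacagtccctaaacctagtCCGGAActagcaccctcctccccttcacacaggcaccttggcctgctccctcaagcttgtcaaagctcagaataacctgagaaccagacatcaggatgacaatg
Chrna1 promoter (chr3:78877304-78877603, minus strand): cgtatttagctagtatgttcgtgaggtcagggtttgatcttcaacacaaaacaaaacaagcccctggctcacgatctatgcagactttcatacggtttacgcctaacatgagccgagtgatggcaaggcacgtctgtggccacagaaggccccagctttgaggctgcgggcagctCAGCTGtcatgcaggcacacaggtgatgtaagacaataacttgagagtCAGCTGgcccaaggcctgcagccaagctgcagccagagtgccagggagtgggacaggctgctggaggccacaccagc
Chrnd promoter (chr9:95310066-95310365, plus strand): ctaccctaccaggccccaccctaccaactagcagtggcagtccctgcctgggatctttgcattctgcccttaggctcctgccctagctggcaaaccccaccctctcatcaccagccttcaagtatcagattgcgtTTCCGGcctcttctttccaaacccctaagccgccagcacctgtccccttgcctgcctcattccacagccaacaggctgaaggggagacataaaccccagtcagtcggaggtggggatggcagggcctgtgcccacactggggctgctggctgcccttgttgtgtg

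The Chrng window held 2 copies of CAGCTG, with first bases at -26 and -3 from the annotated start, and no CCGGAA. The Chrne window held both elements, CAGCTG at -116 and CCGGAA at -54. Chrna1 held 2 copies of CAGCTG, at -75 and -27, and Chrnd held no CAGCTG but a CCGGAA on the other strand, at -115. The windows of Chrnb1 and Musk, not printed, each held 1 CAGCTG, at -41 and -79, and no CCGGAA. Among all 33469 promoter windows of this length, searched on both strands, 15.1% held CAGCTG, 15.0% held CCGGAA and 72.1% held the general E-box CANNTG, of which CAGCTG is a form. The general E-box was found 4 times in Chrng, 3 times each in Chrna1, Chrnb1 and Musk, and 1 time each in Chrnd and Chrne. These matches describe letters in the window and do not show that a factor bound there. Chrnd and Chrng are direct neighbours among the protein-coding genes of chromosome 9.

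The fetal gamma subunit gene Chrng fell 3.28-fold between the ages, and it was the only one of the 6 that passed the test, by which 3.15% of all genes were called lower. Its intensity was 134.3, 88.1 and 195.3 on day 1 replicates 1, 2 and 3, and 42.6, 36.2 and 40.2 on day 7 replicates 1, 2 and 3. Every day 7 array lay below every day 1 array, and the day 7 arrays lay close together while the day 1 arrays were spread. The mean was 139.2 ± 53.8 on day 1 and 39.7 ± 3.20 on day 7 (SD, n = 3 at each age). Changes are given as log2(value + 1) at the later age minus that at the earlier one, and this change was -1.72 (SE 0.26, 95% interval -2.31 to -1.12; limma adjusted p = 0.0209). The adjusted p-value is corrected by the Benjamini-Hochberg method over all probe sets, and 0.05 was the threshold. The fall was of similar size without any 1 array (log2 change -2.01 to -1.44), but it missed the threshold when day 1 replicate 1 (limma adjusted p = 0.0807), replicate 1 of day 7 (0.0937) or replicate 3 of day 7 (0.0630) was left out, and with a pseudocount of 16 (0.0522).

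**Figure D1:**
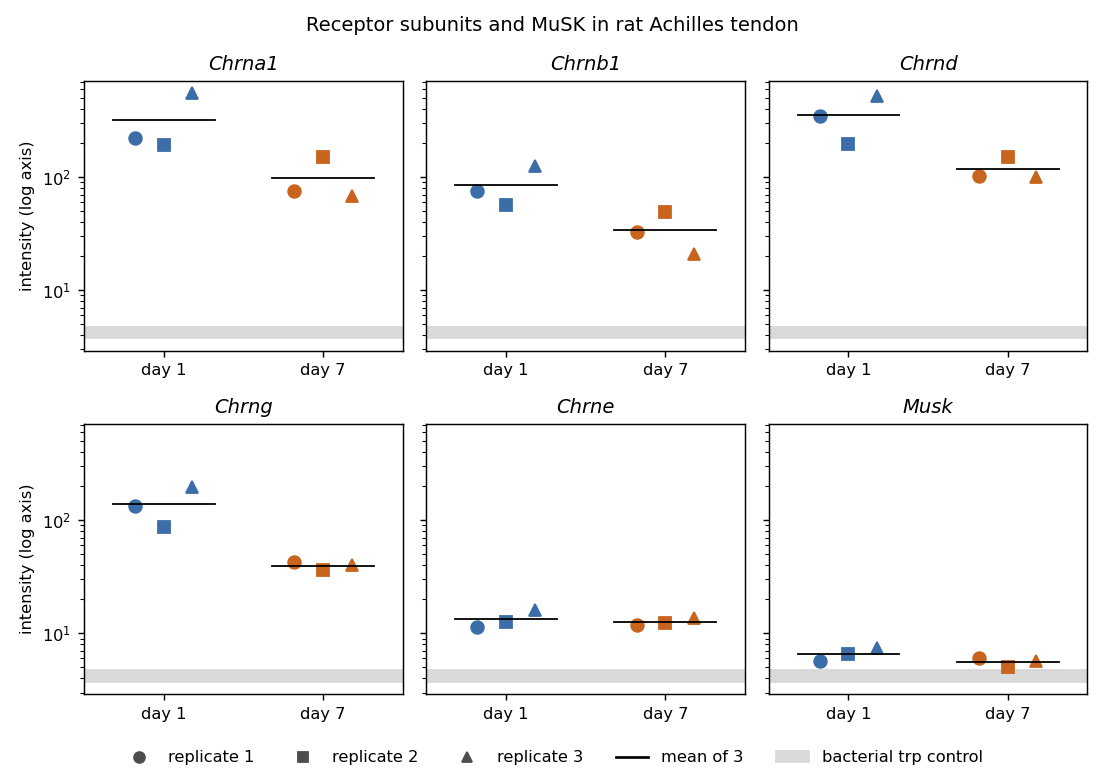
Intensity (log axis) of the 6 genes on each day 1 array (blue) and day 7 array (orange), with replicates 1, 2 and 3 as circle, square and triangle, the mean as a line and the range of a bacterial trp negative control as a grey band. Chrng, Chrna1, Chrnb1 and Chrnd lay lower on all day 7 arrays than on all day 1 arrays, while the ages overlapped for Chrne and Musk, and Musk lay just above the band.

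The adult epsilon subunit gene Chrne was low and did not pass the test in either direction. It read 11.4, 12.5 and 15.9 on day 1 and 11.8, 12.4 and 13.6 on day 7 (replicates 1, 2 and 3). The ages overlapped, and the highest and the lowest value were both on day 1 arrays. The means were 13.3 ± 2.38 and 12.6 ± 0.906 (SD, n = 3), a log2 change of -0.06 (SE 0.14; limma adjusted p = 0.835). The 95% interval of the change ran from -0.39 to 0.26, so that a rise of more than 1.20-fold in this probe set lay outside it. The level was below the median probe set (20.5 to 21.1 on the 6 arrays) but above the bacterial trp negative control, whose probe sets read 3.74 to 4.76. A signal this low can understate a change, and the size of that effect was not tested.

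The 3 subunits common to the fetal and adult receptor were all lower on every day 7 array, without passing the test. Chrna1, which carries most of the acetylcholine binding site, read 223.4, 190.3 and 550.8 on day 1 and 76.0, 152.0 and 68.0 on day 7. Its day 1 mean of 321.5 ± 199.3 rested largely on replicate 3, and its day 7 mean was 98.7 ± 46.3 (SD, n = 3). The log2 change was -1.62 (SE 0.43, 95% interval -2.63 to -0.62; limma adjusted p = 0.0832). On this gene day 7 replicate 2 came close to day 1 replicate 2.

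Chrnd, the delta subunit, read 345.9, 194.9 and 524.9 on day 1 and 101.2, 151.4 and 99.6 on day 7. Again day 1 replicate 3 was highest, and replicate 2 was the lowest array of day 1 and the highest of day 7. The log2 change was -1.50 (SE 0.34; limma adjusted p = 0.0546), and it passed in 4 of 15 alternatives. Among these were the fit without day 1 replicate 2 (-1.88; 0.0267), array weights (0.0262) and the brighter probe sets (0.0372). Leaving out day 1 replicate 2, the lowest of its age, widens the contrast by construction. The change missed the threshold without day 1 replicate 3 (-1.17; 0.114) and without day 7 replicate 1 (-1.41; 0.180).

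Chrnb1, the beta subunit that links the receptor to its scaffold, read 74.97, 57.2 and 125.7 on day 1 and 33.0, 48.9 and 20.7 on day 7. The order of the arrays within day 1 was the same as for Chrnd, and the gap between the ages was narrowest at the replicates numbered 2. The log2 change was -1.31 (SE 0.35; limma adjusted p = 0.0842). Its further probe set read between 4.26 and 7.46, next to the negative control, with a log2 change of 0.21 (adjusted p = 0.513), so it gave no usable check. With the mean of both probe sets the log2 change of Chrnb1 was -0.55.

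Without both arrays numbered 2, a choice made after seeing the data because on the first principal component each lay nearest to the other age, Chrna1, Chrnb1 and Chrnd passed (log2 changes -2.27, -1.85 and -2.07; limma adjusted p = 0.0408, 0.0378 and 0.0206). Chrng then had a change of -1.94 (0.0206). Leaving out the arrays nearest to the other age widens the contrast by construction, so these values are a description and lend the calls no support.

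Musk read 5.70, 6.59 and 7.43 on day 1 and 6.06, 5.01 and 5.72 on day 7. The ages overlapped, and all values lay just above the negative control. The log2 change was -0.20 (SE 0.13, 95% interval -0.49 to 0.10; limma adjusted p = 0.406). No fold change is given for a probe set at this level.

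Of the 6 genes, 1 was called lower and none higher in limma, against 3.15% of the 14217 genes called lower and 1.93% called higher, and 3.51% of all probe sets called in either direction. At an unadjusted p under 0.05, 4 of the 6 were lower and 0 higher, against 2411 and 1506 of all genes. Groups that did not overlap, with day 7 below day 1, were seen in 4 of the 6 genes and in 19.1% of all genes, and the reverse, day 7 above day 1, in 0 of the 6 and in 14.0% of all. The median log2 change of the 6 was -1.41, against -0.01 over all genes.

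**Figure D2:**
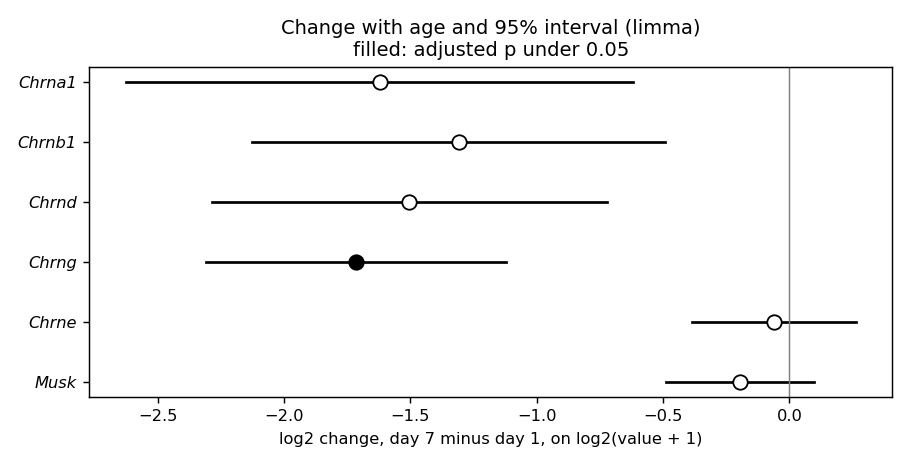
Log2 change from day 1 to day 7 (horizontal axis) for each gene with its 95% interval from limma, n = 3 arrays at each age. The filled point, Chrng, passed an adjusted p under 0.05. The intervals of Chrna1, Chrnb1 and Chrnd lay below 0 but their adjusted p-values were 0.0546 to 0.0842, and those of Chrne and Musk included 0.

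The fetal and adult subunits were then compared with each other within each array. Levels of different probe sets cannot be ranked, but the change in their difference can be compared. Chrng minus Chrne was 3.45, 2.72 and 3.53 on day 1 and 1.77, 1.48 and 1.50 on day 7, on the log2 scale. The difference was thus smaller on every day 7 array. The means were 3.23 ± 0.45 and 1.58 ± 0.16 (SD, n = 3), a shift of -1.65 (exact two-sided permutation p = 0.10, the smallest that 3 arrays against 3 allow; 0.20 after Benjamini-Hochberg adjustment over the 12 within-array differences computed). It stayed between -1.91 and -1.50 without any 1 array. The shift came from Chrng, since Chrne had a change near 0.

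Chrng was set against Chrna1 in the same way, in a design that cannot give a p below 0.10. Chrng minus Chrna1 shifted by -0.09 between the ages (exact permutation p = 0.80), with overlapping arrays, and the shift had the opposite sign without day 1 replicate 1 (0.10), without day 7 replicate 2 (0.33) and with a pseudocount of 16 (0.055). Chrnb1 and Chrnd, each minus Chrna1, shifted by 0.31 and 0.12 (exact permutation p = 0.40 and 0.90), and their arrays also overlapped. The shift of Chrnd had the opposite sign without day 1 replicate 3 (-0.016). Chrne minus Chrna1 was -4.18, -3.82 and -5.03 on day 1 and -2.59, -3.52 and -2.24 on day 7, higher on every day 7 array, with a shift of 1.56 (exact permutation p = 0.10, adjusted 0.20). That shift came from Chrna1 (log2 change -1.62), since the dim Chrne had a change near 0 (-0.06). Musk is too close to the negative control for such a difference to be read.

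**Figure D3:**
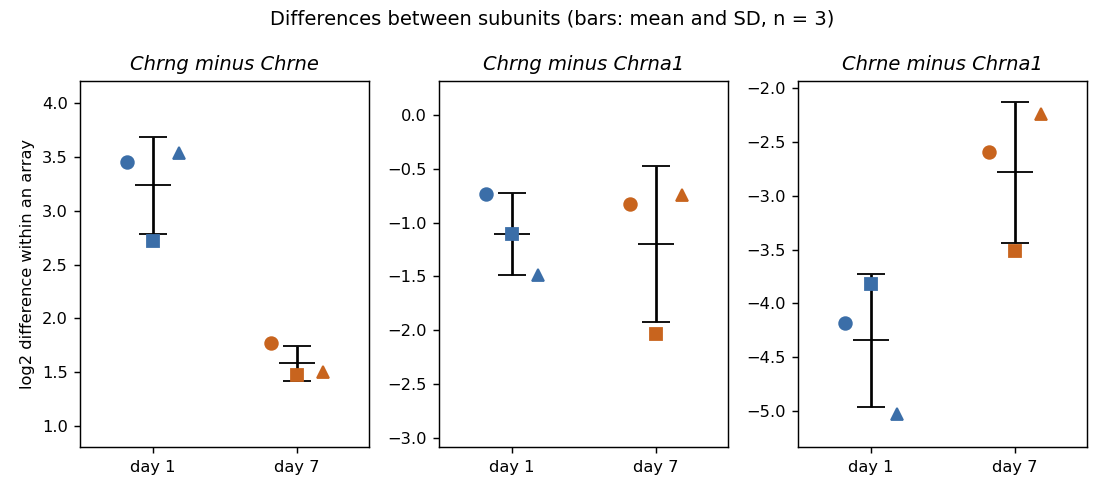
Log2 difference between subunit probe sets within each array (vertical axis, each panel spanning the same number of log2 units), with day 1 in blue, day 7 in orange, symbols by replicate and bars for mean and SD (n = 3). Chrng minus Chrne fell from 3.23 to 1.58, Chrng minus Chrna1 overlapped between the ages, and Chrne minus Chrna1 was higher on each day 7 array. The offset of a panel from 0 depends on the probe sets.

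Most muscle structure genes had lower values at day 7, but only 1 passed the test. Of 34 measured genes of contraction and muscle energy supply, Ryr1, the calcium release channel, fell 2.11-fold (limma adjusted p = 0.0462) and none rose, a share near the 3.15% of all genes called lower. At an unadjusted p under 0.05 there were 29 lower and 0 higher, against 2411 and 1506 of the 14217 genes. All 34 had a negative log2 change, from -1.69 (Actn3) to -0.13 (Acta1), with a median of -0.81. The next smallest adjusted p-values were those of Pgam2, a muscle glycolytic enzyme (log2 change -1.22; 0.0515), Tnnc2, fast troponin C (-0.70; 0.0528), and Myom2, a protein of the M-band (-1.15; 0.0548). The summed intensity of the list was 83264.6 to 110343 on day 1 and 51194.2 to 81761.7 on day 7. The log2 change of Chrnb1 (-1.31) lay within the range of this list, and that of Chrng (-1.72) lay just beyond it. Those of Chrna1 (-1.62) and Chrnd (-1.50) lay within it only through Actn3, whose arrays overlapped between the ages. The next lowest gene of the list was Trim54 (-1.35). In such bulk samples fewer muscle cells and less RNA per muscle cell cannot be told apart.

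The muscle median of an array, with each gene taken relative to its own mean over the 6 arrays, came to 0.45, 0.07 and 0.66 at the earlier age and -0.48, 0.07 and -0.84 on day 7 (replicates 1, 2 and 3). Chrng minus this median was 0.43, 0.21 and 0.76 on the day 1 arrays and -0.27, -1.05 and 0.00 on those of day 7, lower on every day 7 array, with a shift of -0.91 (exact permutation p = 0.10, adjusted 0.20). Chrna1 shifted by -0.81, Chrnd by -0.69 and Chrnb1 by -0.50 against the muscle median, each with all day 7 arrays below all day 1 arrays (exact permutation p = 0.10, adjusted 0.20). The day 1 values of Chrna1 were 0.0009, 0.16 and 1.10, highest on replicate 3. Without day 1 replicate 3 the shifts of Chrna1, Chrnd and Chrnb1 were -0.45, -0.47 and -0.30. With a pseudocount of 16 they were -0.69, -0.61 and -0.22 (exact permutation p = 0.20 for Chrnd and Chrnb1). Chrne shifted the other way, by 0.75, with overlapping arrays (exact permutation p = 0.20, adjusted 0.27). The log2 change of Chrne itself was near 0 (-0.06), so its shift came from the muscle median. With the mean of its probe sets in place of its brighter one, Chrnb1 shifted by 0.25 against the muscle median.

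**Figure D4:**
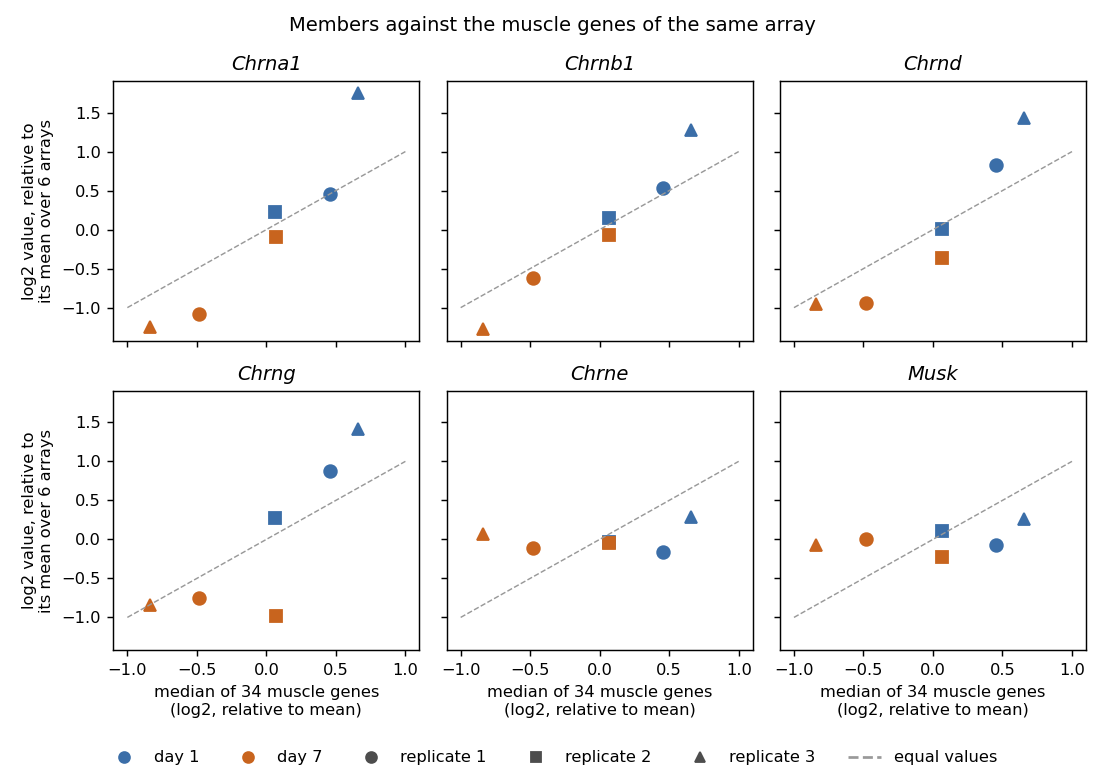
Log2 value of each gene (vertical axis) against the median of 34 muscle genes on the same array (horizontal axis), both relative to the mean over the 6 arrays, with day 1 in blue, day 7 in orange and symbols by replicate; the dashed line marks equal values. Both arrays numbered 2 (squares) had a muscle median of 0.07, and the squares lay far apart for Chrng and closer for Chrna1, Chrnb1 and Chrnd.

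The arrays numbered 2 had almost the same muscle median at both ages, and they permit a side-by-side reading of 1 array of each age, with no test. This pair was singled out after its values were seen. Chrng was 2.43-fold lower on day 7 replicate 2 than on day 1 replicate 2. Chrna1, Chrnb1 and Chrnd were 1.25-fold, 1.17-fold and 1.29-fold lower on the same pair. The receptor anchor Rapsn was 1.15-fold lower on this pair, and the embryonic and perinatal myosins Myh3 and Myh8 were 1.44-fold and 1.40-fold lower. The myogenic factors Myod1 and Myog were 1.83-fold and 1.71-fold lower, between Chrnd and Chrng. The adult myosin Myh2 went the other way, from 75.4 to 1047. The gap between Chrng and Chrna1 was wider on day 7 replicate 2 than on any other array. Chrng minus Chrna1 was -2.04 there, against -0.82 and -0.74 on day 7 replicates 1 and 3.

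Among 36 measured genes of agrin and MuSK signalling and the postsynaptic scaffold, 3 fell and none rose (limma; 13 lower and 0 higher at an unadjusted p under 0.05). Of all genes, 3.15% were called lower and 1.93% higher. At an unadjusted p under 0.05, the counts over the 14217 genes were 2411 lower and 1506 higher. The median log2 change of the list was -0.19. Erbb2, a receptor subunit for neuregulin, fell 2.21-fold, from 116.4 ± 11.4 to 52.1 ± 2.17 (SD, n = 3; limma adjusted p = 0.0111). Nes, the intermediate filament protein nestin, which persists under the synapse in mature fibres, fell 2.83-fold (0.0141), and the kinase Pak1 fell 2.02-fold (0.0279). The cytoskeletal linker Macf1 had a log2 change of -0.47 (0.0672). None of these 3 genes encodes a protein found only at the synapse, and without day 7 replicate 1 no gene of the list was called.

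Rapsn, which encodes rapsyn, the protein that anchors receptors in clusters, read 107.3, 79.1 and 171.9 on day 1 and 45.0, 69.0 and 37.3 on day 7. The arrays kept apart by age, with the narrowest gap again at replicate 2, and the log2 change was -1.20 (SE 0.31; limma adjusted p = 0.0746). Lrp4, the agrin receptor that pairs with MuSK, had a log2 change of -0.67 (0.127), and Dok7, the adaptor that activates MuSK from inside the cell, one of -0.46 (0.216). Both had all day 7 arrays below all day 1 arrays. Colq, the collagen tail of synaptic acetylcholinesterase, changed by -0.73 (0.155) and agrin itself, Agrn, by -0.20 (0.488), with overlapping ages. Ache was not analysed here.

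Of 22 measured myogenic and activity-dependent regulators, 4 fell and none rose in limma, against the 3.15% and 1.93% of all genes called lower and higher. At an unadjusted p under 0.05, 8 were lower and 1 higher, against 2411 and 1506 of the 14217 genes. The median change was -0.16. Myod1, a master regulator of the muscle lineage, read 147.8, 121.4 and 204.8 on day 1 and 36.8, 66.4 and 24.6 on day 7 and fell 3.86-fold (limma adjusted p = 0.0303). Myog, myogenin, the factor known to drive receptor genes in inactive muscle, fell 3.15-fold (0.0338). Camk2b, a calcium-dependent kinase of muscle, fell 2.28-fold (0.0309) and the transcription factor Mef2c fell 2.47-fold (0.0362). The day 7 arrays of these 4 genes all lay below the day 1 arrays. Myf6, the myogenic factor of mature fibres, had a log2 change of -1.05 with overlapping arrays (0.151), and Myf5 was not analysed here. The list had 0 genes called when replicate 1 or 3 of either age was left out, and with a pseudocount of 16.

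Of 12 measured muscle membrane channels and pumps, 1 fell and none rose in limma, where 3.15% of all genes were called lower and 1.93% higher. At an unadjusted p under 0.05, 4 were lower and 0 higher, against 2411 and 1506 of the 14217 genes. The gene called was Atp1b4, a muscle protein related to sodium pump beta subunits, which fell 2.89-fold (adjusted p = 0.0187). No gene of the list was called when replicate 1 of either age or replicate 3 of day 7 was left out. Without day 1 replicate 2 the list had 3 genes lower and without day 7 replicate 2 it had 2. Cacna1s, the voltage sensor of excitation-contraction coupling, had a log2 change of -1.15 (0.0596), the potassium channel Kcnj11 one of -0.78 (0.0907) and the calcium channel subunit Cacnb1 one of -0.55 (0.148). Scn4a, the adult muscle sodium channel, read between 5.63 and 8.80, close to the negative control (log2 change 0.27; 0.306).

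The 11 subunits of neuronal nicotinic receptors are relatives that form channels in neurons and some other cells. None was called in either direction in limma, where 3.15% of all genes were called lower and 1.93% higher. At an unadjusted p under 0.05, 0 of the 11 were lower and 1 higher, against 2411 and 1506 of the 14217 genes. Their median change was 0.12. Chrna7 read 8.10, 9.04 and 6.79 on day 1 and 10.2, 12.04 and 14.1 on day 7 (log2 change 0.54; limma adjusted p = 0.0904). All its day 7 arrays were higher, as in 14.0% of all genes. The log2 changes of Chrnb3, Chrna5 and Chrna3 were 0.26, 0.13 and 0.12, at intensities of 4.13 to 6.23.

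Fetal and adult isoforms of the myosin heavy chain were read on the same arrays. Of 6 measured isoforms 2 were called lower and 1 higher, against 3.15% and 1.93% of all genes. Myh3 and Myh8 fell 1.84-fold and 1.85-fold (limma adjusted p = 0.0313 and 0.0433), while Myh2, the adult IIa isoform, rose 6.52-fold (0.0277), from 135.7 ± 102.9 to 772.4 ± 238.7 (SD, n = 3). The day 1 values of Myh2 were uneven (254.6, 75.4 and 77.2), and with a pseudocount of 16 it was not called. Myh1 and Myh7 had log2 changes of 0.26 and -0.12 (0.502 and 0.762), and Myh4 lay at 4.09 to 7.24. With 1 array left out, at most 1 isoform was still called lower, and a higher isoform was called only when day 1 replicate 1 or 2 was the array left out.

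**Figure D5:**
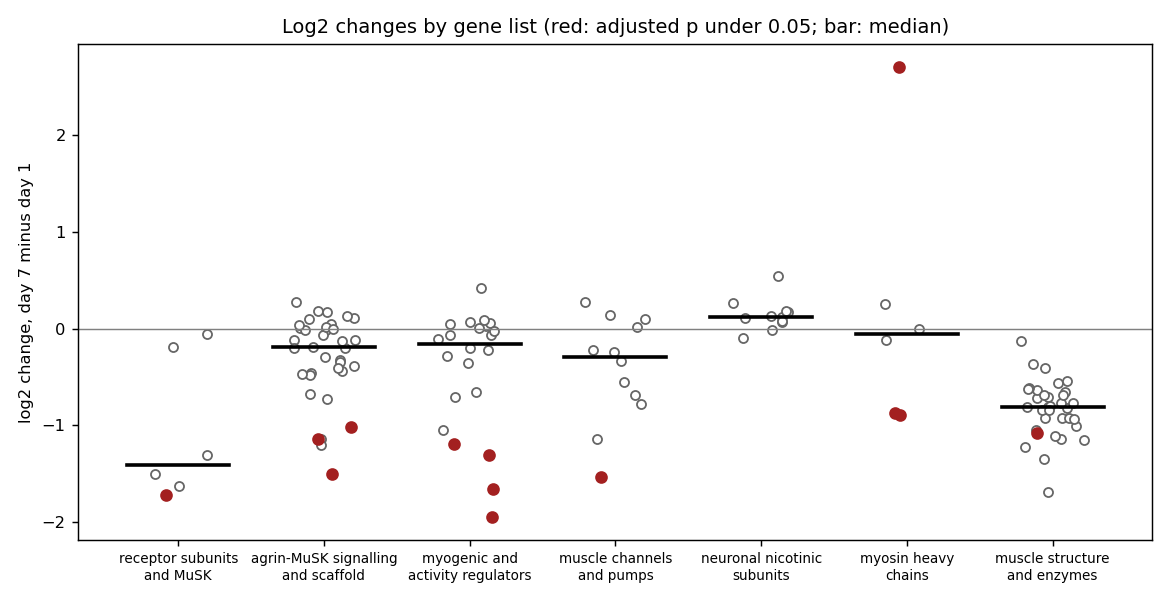
Log2 change from day 1 to day 7 (vertical axis) of every measured gene in each list, with genes at a limma adjusted p under 0.05 in red and the list median as a bar. Chrng was the 1 red gene of the receptor set, 3, 4 and 1 genes were lower in the signalling, regulator and channel lists, and the median of the neuronal subunits was 0.12.

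For each receptor gene the 3 genes with the most similar profile were taken by Pearson correlation over the 6 arrays among genes with a range of at least 1 on the log2 scale. These r values are the highest among 2023 or 2024 candidates over only 6 arrays. For a receptor gene lower on every day 7 array, the division by age raises r with other genes lower on day 7. For Chrng the 3 genes were Uhrf1, Arhgap28 and Map2 (r = 0.995, 0.993 and 0.989), and all 3 fell (limma adjusted p = 0.0226, 0.0326 and 0.0141). For Chrna1 they were Tnfrsf12a, Cidea and Mustn1 (0.999, 0.997 and 0.996), for Chrnb1 Tspan7, Arpp21 and Clasp1 (1.00, 0.998 and 0.998) and for Chrnd Ehbp1l1, Tead4 and Fxr1 (0.997, 0.996 and 0.996). The adjusted p-values of these 9 genes lay between 0.0658 and 0.117. For Chrne and Musk, whose own ranges were 0.45 and 0.49, the highest r was 0.969, with Ccl2, and 0.954, with Ankrd44.

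Tendon genes had signal on all 6 arrays, alongside the muscle genes above. Scx, the tendon lineage factor, read 603.1 to 896.5 and Tnmd, tenomodulin, 2279 to 6822 over the 6 arrays. The 11 measured tendon genes summed to 36500.7 to 57248.4 on day 1 and to 60606.3 to 76393 on day 7, with 2 higher and 0 lower in limma (6 higher and 0 lower at an unadjusted p under 0.05). Set against the 1.93% of all genes called higher and 3.15% called lower, 7 of 10 adipocyte genes rose (sums 1582 to 1768 and 2796 to 5542), and 1 of 8 cartilage genes rose (sums 1048 to 2888 and 2910 to 5463). At an unadjusted p under 0.05, 9 adipocyte and 7 cartilage genes were higher and 0 of either lower. Of 16 Schwann cell and nerve genes 1 rose and 1 fell (sums 2047 to 2477 and 2396 to 9201). In this list 5 were higher and 1 lower at an unadjusted p under 0.05. Its sum on day 7 replicate 2 was 2396, against 6020 and 9201 on replicates 1 and 3 of that age. Of 11 genes of cholinergic neurons none was called in limma (1 higher and 1 lower at an unadjusted p under 0.05; sums 144.3 to 209.9 and 175.7 to 180.6), and Chat, which makes acetylcholine, read 5.46 to 7.36. At an unadjusted p under 0.05, 2411 of the 14217 genes were lower and 1506 higher. No marker was listed at 0. The part of these cell types in the receptor results was not tested, beyond the comparison with muscle genes above. Over all genes limma called 448 lower and 274 higher, and 320 lower and 352 higher after quantile normalization.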

How the data were processed

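Rat Achilles tendon RNA was measured on 6 arrays, 3 of post-natal day 1 and 3 of day 7. Each deposited value is an intensity of 1 probe set on a linear scale. MAS5 and RMA are both listed in the submitters' processing notes, and which of them made these values is not stated. Values were taken as log2(value + 1). Control probe sets (57 of 31099) were dropped, and the other 31042 were tested with limma 3.58.1 in R 4.3.3 (lmFit, eBayes, two-sided, Benjamini-Hochberg, adjusted p under 0.05). GEO's platform annotation gave 20826 of them 1 gene symbol, 436 several and 9780 none. Where a gene had several, its brightest probe set by mean log2 value stood for it. Symbols of all 6 genes matched a RefSeq table of GRCr8.

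Within-array differences were tested by exact permutation over arrays. Genes were named as follows: all 6 receptor genes, the 4 smallest adjusted p-values of each list, key members set by name and the 3 most correlated genes. Members and lists were chosen with earlier results of these data known. Alternatives were a pseudocount of 16, quantile normalization, median centring, brighter probe sets, the mean of probe sets, an intensity trend, array weights, a replicate block and leaving out arrays. The fit was tested on simulated data. A comparison of protein sequences was not made. The number of arrays limits precision.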

Additional observations from a re-analysis of the deposited data

How the results depend on the processing

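Log2 changes of Chrna1, Chrnb1, Chrnd, Chrng and Musk kept their sign in every alternative run on the probe set used; that of Chrne was 0.069 without day 1 replicate 3. The further probe set of Chrnb1 gave 0.21. Chrng passed in 10 of 15 alternatives (adjusted p 0.00959 to 0.0937), Chrnd in 4 of 15 (0.0206 to 0.180), Chrna1 and Chrnb1 in 1 of 15 each (0.0408 to 0.231 and 0.0378 to 0.210) and Chrne and Musk in none of 14 (0.647 to 0.967 and 0.275 to 0.701). The fit without both arrays numbered 2, chosen after seeing the data, gave the only pass of Chrna1 and Chrnb1 and 1 of the 4 of Chrnd. That fit widens the contrast by construction, as does the fit without day 1 replicate 2, another pass of Chrnd. Chrne and Musk were too dim for the alternative with brighter probe sets. Without 1 array, log2 changes ranged from -1.98 to -1.15 for Chrna1, -1.60 to -0.999 for Chrnb1, -1.88 to -1.17 for Chrnd, -2.01 to -1.44 for Chrng, -0.16 to 0.069 for Chrne and -0.28 to -0.12 for Musk. The genes called numbered 0 to 382 lower and 4 to 271 higher, with the smallest counts without day 7 replicate 1. Chrng minus Chrna1 ranged from -0.32 to 0.33 and Chrnd minus Chrna1 from -0.016 to 0.33. List counts of lower genes were 0 to 3 for signalling, 0 to 5 for regulators, 0 to 3 for channels and 0 to 1 for myosins, with 0 to 1 myosins higher.

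Array weights called 897 genes lower and 538 higher, with Chrnd at -1.51 and 2 channels lower. The brighter probe sets gave Chrnd at -1.50 and 2 channels lower, and the intensity trend also gave 2. With a pseudocount of 16, 182 genes were higher, Chrng was -1.42, Chrng minus Chrna1 was 0.055, and 0 regulators and 1 myosin were lower and 0 myosins higher. The mean of probe sets put Chrnb1 at -0.55 and Chrnb1 minus the muscle median at 0.25. Without both arrays numbered 2, Chrna1, Chrnb1 and Chrnd were -2.27, -1.85 and -2.07, Chrng minus Chrna1 was 0.33, 5 signalling genes and 5 channels were lower and 0 myosins higher. The cause of these changes was not tested.

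Same-numbered arrays deviated from their age means with correlations of 0.05, -0.25 and -0.14. With 3 arrays at each age, these values cannot decide whether the numbers pair the samples. With the replicate block, 8 genes were lower and 25 higher, the call of Chrng was lost (-1.72, which a balanced block cannot alter; adjusted p = 0.0570), and 0 genes of the signalling, regulator, channel and myosin lists were called. Chrng minus Chrne, likewise -1.65 by construction, had an exact sign-flip permutation p of 0.25 with the pairing, the smallest 3 pairs allow. Probe sets near the negative control, at most 4.76, have no reliable change.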
